A study of Homo sapiens with 12 samples.

Results

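Palbociclib-resistant A375 cells were compared with parental A375 cells in 6 of the 12 libraries of the series, 3 of each state. A375 is an established human melanoma line. The resistant derivative, A375AR991, had been grown in rising palbociclib concentrations for 7 months, was kept at 4 µM, and was without the drug for 72 h before its RNA was taken. The controls were untreated parental cells that had not been through the selection. The labels describe 1 resistant derivative, so its differences from the parental line cannot be told apart from those of a single culture history. Whether the 3 libraries of a state were separate cultures is not stated, and the p-values then reflect the spread among these samples alone, which may be technical. The 6 libraries were chosen by line and state, and every one of the 33932 genes listed for them entered the analysis.

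Palbociclib inhibits CDK4 and CDK6, the kinases that pair with D-type cyclins and phosphorylate the retinoblastoma protein, which otherwise holds cells in G1. Melanoma cells come from the neural crest lineage and can move between pigmented, neural crest-like and mesenchymal expression programmes. The genes described here lie mostly outside the cell cycle and p53 pathways: matrix and adhesion genes, secreted signals and their receptors, neural genes, ion channels, metabolism, homeobox genes and antigens of the germ line.

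After a filter on low counts 18086 genes were tested, and 5111 (28.3%) were called at an adjusted p below 0.05 in edgeR. Of the tested genes 13.4% were higher and 14.8% lower in the resistant libraries. At a fold change of at least 2 the counts were 708 higher (3.91%) and 622 lower (3.44%), together 7.35%, and 42.8% of the tested genes had no overlap between the 3 parental and the 3 resistant values. The median log2 fold change was -0.000844 and its median standard error 0.117. Levels are given as CPM (read counts scaled by each library's total over the tested genes and its TMM normalisation factor). They are always in the order of replicates 1, 2 and 3. Fold changes are log2 of resistant over parental ± SE. Where the median fold change of a gene's 20 nearest tested genes on its chromosome was 0.3 or more in size, it is given beside the gene, because long chromosome stretches differed together between the states. Totals ran from 25398920 to 29812686 counts per library, and 3 counts stood for 0.0998 to 0.118 CPM. The first principal component (72% of the variance) separated the states.

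The cultures carried the melanoma lineage marker SOX10, a neural crest transcription factor, at 512, 368 and 368 CPM in the parental and 357, 209.6 and 355 CPM in the resistant libraries. The pigment genes that depend on it were close to the floor: MLANA lay between 0.374 and 0.932 CPM in all 6 libraries and PMEL between 0.458 and 1.38 CPM, and TYR was not analysed here. Summed over the melanocytic markers the level ran from 446.5 to 603 CPM in parental and from 279 to 422 CPM in resistant libraries. SOX10 held most of these sums. Of the other cell types a culture could hold, the 10 leukocyte markers summed to 57.4 to 83.1 CPM in parental and 57.2 to 76.0 CPM in resistant libraries. CD68, at 49.5 to 77.2 CPM, and LYZ, at 2.23 to 7.25 CPM, were the 2 of them that passed the filter, and PTPRC, CD3E and MS4A1 were at 0.276 CPM or less in every library. The 8 endothelial markers, 7 of them in the table, summed to 18.5 to 23.7 CPM and 19.4 to 25.6 CPM, with KDR at 4.81 to 14.7 CPM, TIE1 at 6.97 to 10.7 CPM, and CDH5 and VWF at 0.489 CPM or less. The summed fibroblast markers were higher in the resistant cells, 50.6 to 60 CPM against 22.3 to 26.7 CPM. Their members are described with the matrix genes.

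Among called genes with an established symbol and at least 10 CPM the largest rises were those of FDCSP, MMP9 and COL1A2. In bulk RNA more expressing cells and more RNA per cell cannot be told apart. FDCSP (ENSG00000181617), a small secreted peptide first described in follicular dendritic cells, had 0.118, 0 and 0.0382 CPM in the parental and 12.8, 7.19 and 11.8 CPM in the resistant libraries. This was 4 against 899 reads, a ratio of 204 with a 95% exact counting interval from 79.4 to 750. Its fitted log2 fold change of 7.56 ± 0.47 (adjusted p = 1.6e-05) became 8.80 without parental replicate 1. MMP9, the gelatinase that cleaves type IV collagen, had 0.158, 0.462 and 0.191 CPM in parental and 11.4, 17.1 and 24.4 CPM in resistant libraries, a change of 6.00 ± 0.41 (adjusted p = 2.6e-05). Without parental replicate 2 the change was 6.62. COL1A2, which encodes a chain of type I collagen, stood at 0.197, 0.848 and 0.153 CPM and then at 13.8, 16.1 and 13.6 CPM (5.16 ± 0.36, adjusted p = 2.8e-05), or 6.34 without parental replicate 2. For these 3 genes the lowest resistant library lay more than 10 times above the highest parental one.

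TENM1, a teneurin that joins neurons at synapses, rose although its surroundings on the X chromosome fell. It had 3.98, 1.62 and 2.06 CPM in the parental and 46.1, 33 and 32 CPM in the resistant libraries, a change of 3.86 ± 0.28 beside a neighbour median of -0.65. A2M, which traps proteases, rose from 1.5, 0.617 and 0.229 CPM to 16.3, 6.06 and 8.86 CPM (3.74 ± 0.53, adjusted p = 0.00098), with parental replicate 1 above the other parental libraries and a change of 4.61 without it. Both genes stayed apart between the groups in all 6 libraries. TRO, a membrane protein of the MAGE family, was among the most even of the largest changes, at 1.89, 2.04 and 2.33 CPM and 17.9, 17.7 and 19.2 CPM (3.13 ± 0.12, adjusted p = 1.8e-06). PPP4R3C, a regulatory subunit of protein phosphatase 4, changed by 3.16 ± 0.19 and SPRR2D, a cornified envelope protein of skin, by 3.04 ± 0.31.

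**Figure D1:**
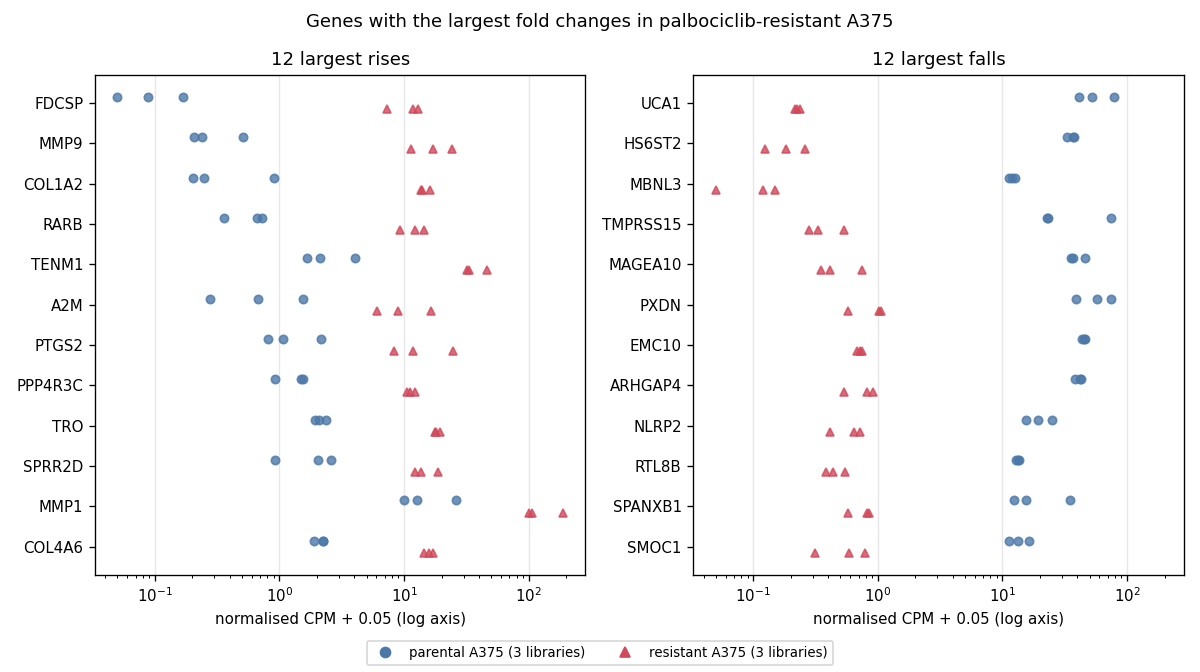
Level of the 12 genes with the largest rises and the 12 with the largest falls among called genes with an established symbol and at least 10 CPM. Levels are normalised CPM plus 0.05 on a log axis, with 1 point per library. In none of the 24 genes do the 3 resistant points (triangles) overlap the 3 parental points (circles).

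The deepest fall among these genes was that of UCA1, a long non-coding RNA named for urothelial cancer, with 41.2, 52.1 and 78.3 CPM in parental and 0.175, 0.166 and 0.187 CPM in resistant libraries. That was 4449 against 15 reads, a change of -8.31 ± 0.37 (adjusted p = 3.6e-06), beside a neighbour median of -0.50 on chromosome 19. TMPRSS15, the intestinal protease that activates trypsinogen, had 23.4, 22.5 and 74.8 CPM and 0.279, 0.233 and 0.486 CPM (-6.92 ± 0.68). Parental replicate 3 was far above the other parental libraries, and without it the change was -6.11. EMC10, a subunit of the complex that inserts proteins into the endoplasmic reticulum membrane, was even within each group, at 46.1, 45.1 and 43.3 CPM and 0.699, 0.665 and 0.635 CPM (-6.06 ± 0.10, adjusted p = 1.4e-08), while its neighbours on chromosome 19 had a median of 0.43. SMOC1, a secreted calcium-binding matrix protein, fell from 16.4, 11.3 and 13.3 CPM to 0.733, 0.532 and 0.262 CPM, a change of -4.72 ± 0.27 (adjusted p = 1.1e-05).

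Chromosome X held 6 of the 12 largest falls and 4 of the 12 largest rises. A neighbour median of -0.3 or less was found for 7 of the 12 falls, against 1 of the 12 rises with a median of 0.3 or more. The shares of all tested genes on chromosome X or with such a median were not counted. HS6ST2 had 32.9, 36.9 and 37.6 CPM in parental and 0.21, 0.133 and 0.0747 CPM in resistant libraries (-7.95 ± 0.19). MBNL3, a muscleblind splicing regulator, had 11.9, 12.7 and 11.2 CPM and 0.0699, 0.0998 and 0 CPM (-7.56 ± 0.30, or -8.18 without resistant replicate 2), and both had a neighbour median of -0.91. The retrotransposon-derived gene RTL8B changed by -5.00 ± 0.16 beside -0.83, and the GTPase-activating protein ARHGAP4 by -5.84 ± 0.15 beside -1.06. Each of these genes was therefore lower than its own stretch of the chromosome by more than 4 log2 units.

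Among the genes with an established symbol called at 2-fold or more without overlap between the groups, some gained most in CPM. The largest gains were in VGF, TFPI2, FN1, NES, LAMA4, ITGA1, COL5A2 and CDH2. VGF, the precursor of secreted neuropeptides, had 81, 31.8 and 59.5 CPM in parental and 538, 268 and 455 CPM in resistant libraries, a change of 2.87 ± 0.34 (adjusted p = 0.0004). TFPI2, a serine protease inhibitor deposited in the matrix, rose from 36.9 ± 10.7 to 195 ± 43.6 CPM (SD, n = 3), a change of 2.40 ± 0.21. NES encodes nestin, an intermediate filament of neural progenitors, and its level went from 189.7, 154 and 121 CPM to 525, 424 and 526 CPM (1.67 ± 0.15). The largest losses in CPM among the same 2-fold genes were in THBS1, MAGEA4, IRAK1, COL9A3, KRT80, L1CAM, SERINC2 and TGM2. THBS1, the secreted adhesion protein thrombospondin 1, had 2038, 3977 and 2927 CPM in parental and 1049, 1599 and 1359 CPM in resistant libraries, which did not overlap although the parental values differed widely (-1.16 ± 0.23, adjusted p = 0.0051). SERINC2, a multipass membrane protein, fell from 189 ± 39.3 to 27.6 ± 2.93 CPM (SD, n = 3) (-2.77 ± 0.15) without a shift of its neighbours, whereas IRAK1, a kinase of interleukin 1 receptor signalling, fell from 734 ± 61 to 287 ± 8.24 CPM (SD, n = 3) beside a neighbour median of -1.03. The collagen chain COL9A3 changed by -1.49 ± 0.19.

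Among enzymes that cut the matrix and their inhibitors, 40 of 42 members were tested, and 12 rose, 7 fell and 21 did not pass, so 47.5% were called and the median was -0.06. The rises were the large changes: 8 of them reached 2-fold, against 2 of the falls. MMP1, the interstitial collagenase, had 9.93, 12.8 and 26.3 CPM in parental and 101, 107 and 189 CPM in resistant libraries (3.02 ± 0.36, adjusted p = 0.00042), and the 3 resistant libraries were all at least 3 times the highest parental one. ADAMTS5, an aggrecan-cleaving protease, rose from 0.579 ± 0.21 to 4.95 ± 1.18 CPM (SD, n = 3). FAP, a serine protease of activated fibroblasts, rose from 0.206 to 2.32 CPM beside a neighbour median of 0.35, 16 against 198 reads. CTSK, the collagen-degrading cathepsin K, went the other way, from 6.36 ± 0.937 to 0.787 ± 0.101 CPM (SD, n = 3) (-3.01 ± 0.19). MMP2, the other gelatinase, also fell, from 348 to 248 CPM (-0.49 ± 0.08), and so did the protease inhibitor SERPINE2 (-0.61 ± 0.09). The latter 2 genes were picked once their values were known, as were further list members named below outside the rule given with the methods.

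In basement membranes, sheets of laminin and type IV collagen under epithelia and around vessels, 6 of 28 tested members rose and 7 fell (4 without resistant replicate 3), with a median of -0.04. PXDN, the peroxidase that crosslinks type IV collagen, had 57.8, 38.6 and 74.1 CPM in parental and 1.01, 0.965 and 0.523 CPM in resistant libraries, a change of -6.07 ± 0.31 (adjusted p = 6.5e-06). COL4A6 moved the opposite way, from 2.17, 2.2 and 1.83 CPM to 14.5, 17.1 and 15.9 CPM (2.94 ± 0.13), and its head-to-head neighbour COL4A5 rose by 1.05 ± 0.13, both beside a neighbour median near 0.36. LAMA4, a laminin chain of vessel walls and nerves, had 122, 88.1 and 115 CPM and 319, 244 and 325 CPM, a change of 1.45 ± 0.14 (adjusted p = 0.00013). LAMB3, a chain of the laminin to which hemidesmosomes bind, fell from 35.5 ± 3.14 to 17.7 ± 0.801 CPM (SD, n = 3).

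The hemidesmosome receptor fell with that laminin chain. ITGB4, the integrin chain that anchors epithelial cells to the basement membrane, had 86.9, 47.2 and 109 CPM in parental and 4.89, 3.19 and 5.19 CPM in resistant libraries, a change of -4.20 ± 0.32 (adjusted p = 4.4e-05). Its partner chain ITGA6 had 488, 451 and 439 CPM and 264, 221 and 292 CPM (-0.83 ± 0.09). The groups did not overlap for either chain. ITGA1, a collagen-binding chain, rose from 109.7, 98.1 and 57.2 CPM to 244, 231 and 229 CPM (1.41 ± 0.19). Chains that bind fibronectin moved both ways: ITGA4 and ITGAV rose by 0.89 ± 0.10 and 0.56 ± 0.06, while ITGA5 fell. The ITGA5 level went from 183 to 141 CPM (-0.37 ± 0.10, adjusted p = 0.022), a call that some fits with a library left out lost. In all, 6 of 21 tested integrin chains rose and 5 fell, 52.4% called.

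FN1, which encodes fibronectin, rose from 286, 304 and 174 CPM to 979, 898 and 631 CPM (1.72 ± 0.22), and COL5A2, a chain of fibrillar type V collagen, rose from 264 ± 20.9 to 618 ± 36.1 CPM (SD, n = 3). Of the 12 tested genes on a broader fibroblast marker list, 7 rose and 3 fell. LUM, a collagen-binding proteoglycan, rose from 7.03 to 21 CPM (1.58 ± 0.20), FBLN1, a matrix glycoprotein, by 1.63 ± 0.20 and the growth factor receptor PDGFRA by 1.55 ± 0.21. S100A4, a calcium-binding protein also called fibroblast-specific protein, had 173, 135 and 121 CPM in parental and 8.24, 11.4 and 9.12 CPM in resistant libraries, a change of -3.89 ± 0.16 (adjusted p = 2.8e-06). Another defining fibroblast marker, THY1, stayed between 0.118 and 0.231 CPM in all 6 libraries, and DCN between 0.710 and 1.62 CPM. COL1A1, the partner chain of COL1A2 in type I collagen, ran from 2.89 to 7.17 CPM in parental and from 4.335 to 7.09 CPM in resistant libraries and was not called.

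Heparan sulfate chains on syndecans and glypicans hold growth factors at the cell surface, and their sulfation sets which factors bind. Of 27 tested genes of this pathway 8 fell and 2 rose (1 on leaving out parental replicate 2 or 3 or resistant replicate 2), with a median of -0.20. HS6ST2, described above, adds sulfate to the 6-O position of glucosamine. The sulfatases that remove such sulfates after synthesis moved apart: SULF1 had 9.93, 8.48 and 5.23 CPM in parental and 61.2, 49 and 59.2 CPM in resistant libraries, a change of 2.84 ± 0.19 (adjusted p = 2.5e-05). SULF2 had 203, 155 and 174 CPM and 59.3, 55.4 and 80.4 CPM, a change of -1.45 ± 0.15 (adjusted p = 0.00016). The heparan sulfate-cleaving enzyme HPSE fell from 6.89 ± 0.57 to 3.09 ± 0.301 CPM (SD, n = 3), and the core protein SDC1 fell from 101 to 56.8 CPM (-0.83 ± 0.10). GPC4, a glypican gene close to HS6ST2 on chromosome X, fell from 2.19 to 0.0598 CPM beside a neighbour median of -0.91.

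Prostaglandins are made from arachidonic acid, which phospholipase A2 frees from membranes and cyclooxygenases convert. PLA2G4A, the cytosolic phospholipase, had 2.6, 3.35 and 2.29 CPM in parental and 10.5, 14.4 and 11.2 CPM in resistant libraries, a change of 2.13 ± 0.18 (adjusted p = 7.4e-05). PTGS2, the inducible cyclooxygenase, had 1.02, 2.12 and 0.763 CPM and 8.28, 24.7 and 11.8 CPM (3.52 ± 0.48, adjusted p = 0.00081), and the prostaglandin E synthase PTGES rose from 15.5 to 32.1 CPM (1.05 ± 0.23). PTGS1, the constitutive cyclooxygenase, fell from 2.14 ± 0.339 to 0.827 ± 0.102 CPM (SD, n = 3), and PTGES2, another E synthase, by a smaller amount (-0.32 ± 0.06). Of 13 tested pathway members 5 rose and 3 fell, and 8 of 22 were under the filter.

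Inflammatory secreted factors did not move as 1 group: 4 of 24 tested cytokines and chemokines rose and 5 fell (3 without resistant replicate 1). CXCL8, the neutrophil chemokine interleukin 8, had 8.79, 11.1 and 6.07 CPM in parental and 60.2, 45.8 and 44.1 CPM in resistant libraries, a change of 2.53 ± 0.20 (adjusted p = 5.1e-05). IL1A, an alarm cytokine, had 6.03, 4.89 and 3.32 CPM and 18.6, 20.7 and 34.7 CPM (2.38 ± 0.28), and CXCL1, a relative of CXCL8, rose from 26.5 ± 3.67 to 50.8 ± 10.7 CPM (SD, n = 3). IL24, a cytokine of the interleukin 10 family first found in melanoma, fell from 37.7 to 9.55 CPM (-1.97 ± 0.45), and TNFSF9, a ligand that costimulates T cells, changed by -0.56 ± 0.08. Of 32 tested cytokine receptors 4 rose and 8 fell (5 on leaving out parental replicate 1 or resistant replicate 1 or 2). LIFR, the receptor chain for leukaemia inhibitory factor, rose from 18.8 ± 3.48 to 43.1 ± 8.49 CPM (SD, n = 3), and IL1R1, the receptor of IL1A, rose from 0.581 ± 0.0739 to 1.88 ± 0.443 CPM (SD, n = 3). TNFRSF1B, the second receptor of tumour necrosis factor, fell from 9.4 ± 1.67 to 3.04 ± 0.428 CPM (SD, n = 3), and IL17RD, which also restrains fibroblast growth factor signalling, fell from 23.2 ± 3.79 to 6.52 ± 0.756 CPM (SD, n = 3).

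Growth factor genes had 13 rises and 6 falls among 33 tested, 57.6% called. HGF, the ligand of the receptor MET, had 0.158, 0.0385 and 0.0763 CPM in parental and 2.2, 2.06 and 2.17 CPM in resistant libraries, 7 against 183 reads and a ratio of 23.7 (95% exact counting interval 11.3 to 59.8), with a fitted change of 4.50 ± 0.32 or 5.11 without parental replicate 1. GDNF, a neurotrophic ligand of RET, rose from 2.6 to 9.49 CPM (1.87 ± 0.28), PDGFD by 1.56 ± 0.21, the lymphatic factor VEGFC from 32.5 to 65.5 CPM (1.01 ± 0.17), ANGPT1 by 0.93 ± 0.09 and FGF2 by 0.66 ± 0.08. The vessel growth factor VEGFA fell from 57.3 ± 3.85 to 37.2 ± 2.37 CPM (SD, n = 3), PDGFB changed by -1.67 ± 0.33, and VEGFB changed by -0.78 ± 0.11 beside a neighbour median of -0.64. Within the VEGF and PDGF families members thus lay on both sides.

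Among receptors for growth factors 11 fell and 6 rose of 35 tested, with a median of -0.18. MST1R, a kinase related to MET, fell from 4.25 ± 0.626 to 1.01 ± 0.207 CPM (SD, n = 3), and MET itself, whose ligand gene rose, fell from 268 to 177 CPM (-0.60 ± 0.09). DDR1, a collagen receptor kinase, changed by -0.64 ± 0.07 and PDGFRB by -1.16 ± 0.25. EPHA4, an ephrin receptor, rose from 16.4 ± 2.99 to 32 ± 2.19 CPM (SD, n = 3). NGFR, the low-affinity neurotrophin receptor that marks neural crest-like melanoma cells, had 121, 139 and 95.7 CPM in parental and 16.5, 17.8 and 20.4 CPM in resistant libraries, a change of -2.71 ± 0.14 (adjusted p = 6.9e-06). The resistant libraries were all below the lowest parental one.

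A375 grows on signalling through ERK, whose immediate targets include phosphatases and Sprouty proteins that feed back on the pathway. Of 28 tested output genes 6 rose (3 without resistant replicate 1 or 3) and 5 fell (3 without resistant replicate 2). DUSP4, a phosphatase of ERK, fell from 458 to 277 CPM (-0.73 ± 0.11), and DUSP5 changed by -0.75 ± 0.11 beside a neighbour median of -0.45. SPRY1 rose from 9.25 ± 0.177 to 14.7 ± 1.52 CPM (SD, n = 3), and ETV1, an ETS transcription factor, rose from 70.2 ± 3.33 to 130.0 ± 5.37 CPM (SD, n = 3). The members split in sign, and the list's median was -0.01.

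Of 36 lists with at least 10 tested members 35 had a share of called members above the 28.3% of all genes, with a median share of 41.4%, so a share above it was usual for these lists and marks none of them.

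**Figure D2:**
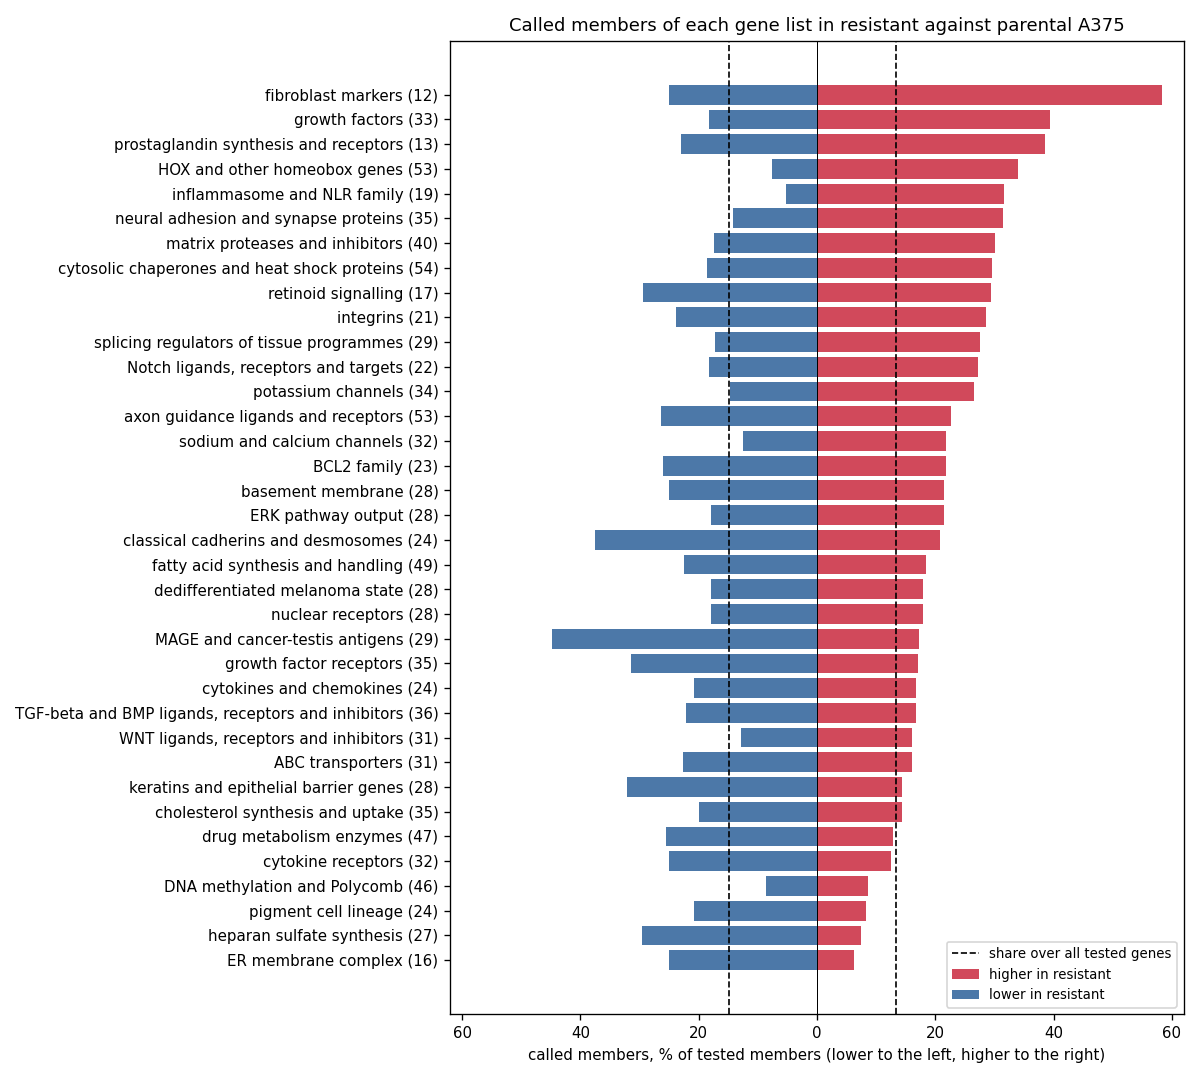
Called members as a percentage of tested members for 36 gene lists with at least 10 tested members (number in brackets), higher to the right and lower to the left, with dashed lines at 13.4% and 14.8%, the shares over all tested genes. Fibroblast markers, growth factors and prostaglandin genes reach farthest to the right, and MAGE and cancer-testis antigens and cadherins to the left.

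Ligands and inhibitors of the TGF-beta and BMP family had 6 rises and 8 falls among 36 tested. GDF6, a BMP-like ligand, had 2.52, 2.23 and 6.45 CPM in parental and 0.0349, 0.0665 and 0.0374 CPM in resistant libraries, 291 against 4 reads and a ratio of 80.2 (95% exact counting interval 31 to 296), or a fitted change of -5.53 without parental replicate 3 in place of -6.19. NOG, which encodes the BMP inhibitor noggin, fell from 3.09 ± 1.01 to 0.375 ± 0.204 CPM (SD, n = 3), and FSTL3, an activin inhibitor, fell from 77.1 ± 11.4 to 48.3 ± 7.05 CPM (SD, n = 3). The BMP receptor BMPR1A fell by 0.56 ± 0.07 beside a neighbour median of -0.56. ID3, a common target of BMP signalling, rose from 69.6 to 109.8 CPM (0.66 ± 0.14), while ID4 changed by -1.29 ± 0.30.

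Among WNT genes 5 of 31 tested members rose (3 on leaving out parental replicate 2 or 3, 2 without resistant replicate 1) and 4 fell. The R-spondin receptors LGR5 and LGR6 moved in opposite directions. LGR5 had 0.158, 0.231 and 0.114 CPM in parental and 2.48, 4.79 and 2.69 CPM in resistant libraries, 13 against 287 reads. LGR6 had 3.94, 6.09 and 4.66 CPM and 0.175, 0.233 and 0.149 CPM, 380 against 16 reads, and the fitted changes were 4.28 ± 0.41 and -4.68 ± 0.28. WNT5A, the non-canonical ligand linked to melanoma invasion, fell from 64.9 ± 10.6 to 26.8 ± 1.92 CPM (SD, n = 3) (-1.28 ± 0.11). NKD2, an inhibitor of the pathway, rose from 0.504 ± 0.162 to 1.62 ± 0.397 CPM (SD, n = 3).

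Notch receptors are cut when a neighbouring cell's Jagged or Delta ligand binds, and HES and HEY genes are their targets. NOTCH3 had 17.8, 19.7 and 16.8 CPM in parental and 1.05, 1.7 and 1.53 CPM in resistant libraries, a change of -3.66 ± 0.17 (adjusted p = 4.2e-06), beside a neighbour median of -0.46. The target HES1 rose from 10.4 ± 0.77 to 18.6 ± 2.02 CPM (SD, n = 3), the target HEY1 from 4.83 to 9.11 CPM (0.92 ± 0.17, neighbour median 0.45) and the ligand JAG1 from 50.8 to 89.7 CPM (0.82 ± 0.16). HES7, of the same family as HES1, fell from 1.97 ± 0.642 to 0.991 ± 0.253 CPM (SD, n = 3), with an adjusted p of 0.03, a call that was lost without parental replicate 3 and without each resistant library in turn. DTX1, an E3 ligase of the pathway, rose from 3.09 ± 0.776 to 8.38 ± 1.21 CPM (SD, n = 3), and LFNG, which glycosylates Notch receptors, fell by 0.72 ± 0.10. The whole list had 6 rises and 4 falls among 22 tested.

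Genes that guide axons were changed in both directions, 12 higher (7 without resistant replicate 3) and 14 lower of 53 tested, with a median of -0.05. SLIT2, a secreted repellent, rose from 11.6 to 40.7 CPM (1.82 ± 0.21), and ROBO4, a vessel member of the receptor family that Slit proteins bind, had 28.9, 32.8 and 34.3 CPM in parental and 7.89, 8.12 and 9.75 CPM in resistant libraries (-1.90 ± 0.11). SEMA3C, a secreted semaphorin, rose from 106 ± 4.12 to 174 ± 8.38 CPM (SD, n = 3), and SEMA7A, a membrane-anchored semaphorin, fell from 74.6 ± 10.7 to 34.1 ± 1.37 CPM (SD, n = 3). PLXNB3, a semaphorin receptor, changed by -1.58 ± 0.17 beside a neighbour median of -1.01.

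Among adhesion proteins of neurons and synapses 11 of 35 tested members rose and 5 fell, with a median of 0.28. NRCAM, an adhesion molecule of axons, rose from 12.2 to 43.2 CPM (1.82 ± 0.14), FLRT2 by 1.46 ± 0.15, and NCAM1 from 1.18 to 3.85 CPM (1.7 ± 0.31). TENM2 had 34, 31.8 and 34.9 CPM in parental and 4.89, 4.79 and 5.98 CPM in resistant libraries (-2.69 ± 0.10), the reverse of its relative TENM1. L1CAM had 237, 185 and 227 CPM and 44.1, 35.4 and 43.6 CPM (-2.40 ± 0.12), and SLITRK4, a synapse-organising protein, fell by 5.07 ± 0.29. The latter 2 genes lie on chromosome X in stretches whose neighbour medians were -1.06 and -2.27.

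Cadherins join cells to each other, and desmosomes tie such junctions to keratin filaments. CDH2, the neural cadherin, had 107, 113 and 108 CPM in parental and 247, 224 and 230.1 CPM in resistant libraries, a change of 1.09 ± 0.06 (adjusted p = 6.7e-06). The desmosomal plaque protein PKP2 had 16.2, 15.3 and 27.8 CPM and 2.55, 3.16 and 3.18 CPM (-2.74 ± 0.25), PKP3 changed by -0.66 ± 0.08, JUP fell from 8.12 to 3.49 CPM (-1.22 ± 0.24), and CDH11, a mesenchymal cadherin, from 6.33 to 0.672 CPM (-3.23 ± 0.42). CDH4, the retinal cadherin, went from 129 to 6 reads over the 3 libraries of a group, with 1.5, 1.19 and 2.29 CPM against 0.0699, 0.0998 and 0.0374 CPM. Of 24 tested members 5 rose and 9 fell, and the list's median was -0.32. The epithelial cadherin CDH1 lay between 0.105 and 0.710 CPM in all 6 libraries.

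The keratin and barrier list had 9 falls, all of at least 2-fold, and 4 rises among 28 tested, while 15 of its 52 members were under the filter. KRT80 had 297, 397 and 384 CPM in parental and 81.3, 139 and 76.5 CPM in resistant libraries, a change of -1.86 ± 0.22 (adjusted p = 0.00035). KRT14, a keratin of basal skin cells, had 22.7, 28.5 and 18.7 CPM and 4.51, 4.56 and 4.6 CPM (-2.35 ± 0.16), KRT15 fell from 11.9 ± 0.672 to 4.2 ± 0.619 CPM (SD, n = 3), and KRT7 from 23.8 to 5.3 CPM (-2.16 ± 0.25). SPRR2D was the largest rise of the list. The summed keratinocyte and epithelial markers of a separate panel, in which KRT18 holds most of the level, were 414 to 512 CPM in parental and 499.6 to 562 CPM in resistant libraries, and EPCAM was at 0.299 CPM or less throughout.

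**Figure D3:**
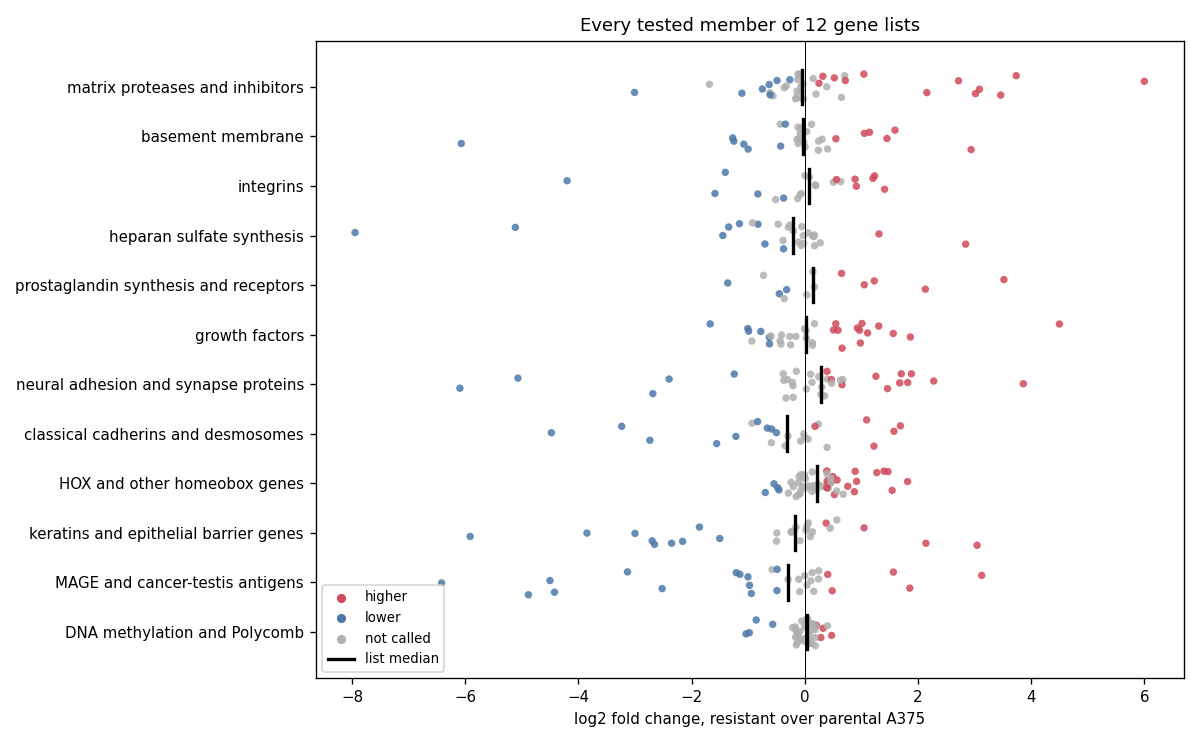
Log2 fold change of every tested member of 12 gene lists, 1 point per gene, coloured by call, with the list median as a black bar. The medians lie between -0.32 for cadherins and desmosomes and 0.28 for neural adhesion proteins, while single members reach 6.00 for MMP9 and -7.95 for HS6ST2.

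Potassium channels set the membrane voltage. KCNJ8, a pore subunit of ATP-sensitive channels, had 0.0394, 0.0385 and 0.153 CPM in parental and 3.88, 2.96 and 4.07 CPM in resistant libraries, 6 against 309 reads and a ratio of 46.7 (95% exact counting interval 21.2 to 128). Its fitted change was 5.47 ± 0.36, or 6.39 without parental replicate 3. KCNK1, a leak channel, fell from 12.7 ± 4.06 to 2.29 ± 0.719 CPM (SD, n = 3), and KCNAB2, an auxiliary subunit, fell from 23.4 ± 0.281 to 8.77 ± 0.0513 CPM (SD, n = 3). Of 34 tested members 9 rose and 5 fell.

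Among sodium and calcium channels 7 of 32 tested members rose and 4 fell. TRPC4, a receptor-operated cation channel, had 6.85, 5.86 and 25.7 CPM in parental and 0.594, 0.965 and 0.561 CPM in resistant libraries (-4.16 ± 0.65, neighbour median -0.34), with parental replicate 3 the highest and a change of -3.15 without it. TRPM2, an oxidant-sensitive channel, fell from 16 ± 2.89 to 4.95 ± 0.298 CPM (SD, n = 3). The neuronal sodium channel SCN2A rose from 2.36 ± 0.376 to 7.47 ± 1.25 CPM (SD, n = 3), and CACNA2D3, an auxiliary calcium channel subunit, rose from 0.608 ± 0.231 to 2.73 ± 0.16 CPM (SD, n = 3).

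ATP-binding cassette (ABC) transporters include pumps that export drugs. Of 31 tested members 5 rose (3 on leaving out parental replicate 1 or 3 or resistant replicate 3) and 7 fell. ABCC2, an exporter of conjugated compounds, had 73.9, 71.8 and 79.2 CPM in parental and 35.2, 40.7 and 39.8 CPM in resistant libraries (-0.96 ± 0.07, neighbour median -0.56). ABCA13 changed by -1.69 ± 0.19. Enzymes of drug metabolism had 6 rises and 12 falls among 47 tested. CYP27B1, which makes active vitamin D, fell from 21.5 ± 1.44 to 5.91 ± 1.01 CPM (SD, n = 3) (-1.87 ± 0.13), and its receptor gene VDR fell from 54.8 ± 2.71 to 30.6 ± 1.02 CPM (SD, n = 3). CYP2R1, which carries out the preceding step of vitamin D activation, rose from 1.31 to 4.56 CPM (1.8 ± 0.24). The ketosteroid reductase AKR1C2 fell from 25.5 ± 4.71 to 8.52 ± 1.4 CPM (SD, n = 3) and its near-copy AKR1C1 from 16.3 to 6.2 CPM, with reads that may be shared between them, and SULT1C2, a sulfotransferase, rose from 1.22 ± 0.48 to 4.33 ± 0.313 CPM (SD, n = 3).

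Retinoic acid binds receptors of the RAR family, which pair with RXR receptors on DNA, and CYP26 enzymes degrade it. RARB, the receptor gene that is itself a classical target of retinoic acid, had 0.67, 0.308 and 0.611 CPM in parental and 14.4, 9.15 and 12.3 CPM in resistant libraries, a change of 4.49 ± 0.27 (adjusted p = 1.4e-05). The first promoter window listed for it in RefSeq (GRCh38.p14, plus strand, chr3:25428013-25428262), 250 bases up to 1 of several start sites, is shown because it holds the known retinoic acid response element. The capitals mark the letters GTTCA repeated in the same direction with 6 bases between, sought on both strands and found in 14 of 27305 promoter windows (0.0513%).
RARB: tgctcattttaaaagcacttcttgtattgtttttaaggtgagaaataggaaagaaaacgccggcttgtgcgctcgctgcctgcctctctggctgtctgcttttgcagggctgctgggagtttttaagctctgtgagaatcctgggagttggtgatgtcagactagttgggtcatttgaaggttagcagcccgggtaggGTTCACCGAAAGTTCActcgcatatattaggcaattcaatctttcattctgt
The retinol dehydrogenase RDH10 rose from 25.7 ± 3.39 to 44.9 ± 4.58 CPM (SD, n = 3) beside a neighbour median of 0.40, DHRS3, a reductase of retinaldehyde, from 46.6 to 90.2 CPM (0.95 ± 0.17), and the retinol uptake receptor STRA6 from 36.9 to 59.6 CPM (0.69 ± 0.11). CYP26B1, which degrades retinoic acid, fell from 6.92 ± 2.18 to 2.22 ± 0.312 CPM (SD, n = 3), and TGM2, a transglutaminase that retinoic acid induces in many cells, had 357, 331 and 482 CPM in parental and 184, 201 and 189.7 CPM in resistant libraries (-1.03 ± 0.12). LRAT, which stores retinol as esters, fell from 14.7 to 9.96 CPM (-0.57 ± 0.12). Thus 5 of 17 tested members rose and 5 fell, and the known targets RARB, CYP26B1 and TGM2 did not share a direction.

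Other nuclear receptors were called at 35.7% of 28 tested, 5 higher and 5 lower (3 without parental replicate 3). PGR, the progesterone receptor, had 2 reads over the parental and 80 over the resistant libraries, a ratio of 36.3 with a 95% exact counting interval from 9.73 to 305. RORA, an orphan receptor of the circadian clock, rose from 1.68 ± 0.218 to 3.91 ± 0.196 CPM (SD, n = 3), and ESRRA, a regulator of mitochondrial genes, fell from 60.1 ± 1.47 to 36.1 ± 1.2 CPM (SD, n = 3) beside a neighbour median of -0.70.

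Homeobox transcription factors record position along the body axis. Of 53 tested members 18 rose (11 without resistant replicate 1 or 3) and 4 fell (2 on leaving out parental replicate 1 or 3 or resistant replicate 3), with a median of 0.21. HOXB9 had 10.8, 8.13 and 7.56 CPM in parental and 41.8, 24.6 and 26.8 CPM in resistant libraries, a change of 1.82 ± 0.22 (adjusted p = 0.00039), and HOXB8 rose from 11.5 to 31.9 CPM (1.47 ± 0.27). By cluster, 2 of 9 tested HOXA genes, 5 of 8 HOXB genes, 1 of 9 HOXC genes and 4 of 6 HOXD genes rose, and 3 HOXC genes fell. These counts changed with the library left out. Over the 6 such fits 2 to 5 HOXB genes and 1 to 4 HOXD genes passed the edgeR test as higher. Without resistant replicate 1 the numbers were 2 for HOXB, 0 for HOXC and 1 for HOXD. DLX1 and DLX2, neighbouring genes of forebrain and branchial arch development, rose together: DLX2 had 15.1, 24.5 and 14.5 CPM and 49.1, 58 and 51 CPM (1.54 ± 0.18), and DLX1 rose from 32.3 ± 2.25 to 60 ± 1.84 CPM (SD, n = 3). PRRX1, a factor of limb and facial mesenchyme, rose from 26.4 to 69.6 CPM (1.40 ± 0.29) and MSX2 by 0.88 ± 0.14.

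Pigment cell genes were mostly low in both states, and 2 of 24 tested members rose and 5 fell (2 on leaving out parental replicate 1 or resistant replicate 3, 1 without resistant replicate 1, 3 without parental replicate 2). TYRP1, a melanin enzyme, had 0.158, 0.231 and 0.267 CPM in parental and 1.47, 2.13 and 1.83 CPM in resistant libraries, 17 against 155 reads and a ratio of 8.27 (95% exact counting interval 5 to 14.6). GPM6B, a membrane glycoprotein, rose from 0.596 ± 0.247 to 2.71 ± 0.055 CPM (SD, n = 3). RAB27A, which carries melanosomes to the cell edge, fell from 8.72 ± 0.478 to 5.71 ± 0.167 CPM (SD, n = 3), and the melanocortin receptor MC1R changed by -0.78 ± 0.20, a call lost with DESeq2 (adjusted p = 0.051) and without resistant replicate 1 (0.0552). On a list for the dedifferentiated melanoma state 5 of 28 tested members rose and 5 fell. SNAI2, a neural crest and mesenchymal repressor, rose from 0.645 ± 0.0129 to 2.54 ± 0.685 CPM (SD, n = 3), TWIST1, another such factor, from 10 to 17.3 CPM (0.79 ± 0.17), and NT5E, the ectonucleotidase CD73, from 64.7 to 114 CPM (0.82 ± 0.11), whereas NGFR, WNT5A and THBS1 fell.

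MAGE and other cancer-testis antigens are germ line proteins that melanomas often express. Of 29 tested members 5 rose and 13 fell, 62.1% called. All 13 genes that fell lie on chromosome X, as do MAGEB2 and TRO, described above, which both rose. The other members that rose were MAGEC1 (1.57), MAGEH1 (0.48) and PRAME (0.41). Some fits that left out 1 library lost the calls of MAGEC1 and MAGEH1. Of the 13, 11 had a neighbour median of -0.3 or less. The number of all 29 tested members on chromosome X and the share of all tested genes with such a median were not counted. MAGEA4 had 1016, 1035 and 1032 CPM in parental and 446, 439 and 448 CPM in resistant libraries, a change of -1.21 ± 0.04 close to its neighbour median of -0.99. MAGEA10 had 35.6, 36.9 and 45.7 CPM and 0.699, 0.366 and 0.299 CPM (-6.42 ± 0.22), far below the same surroundings, and MAGEA11 fell from 33.2 ± 1.18 to 1.54 ± 0.328 CPM (SD, n = 3) beside -1.07. MAGEC2 changed by -2.52 ± 0.09 beside -1.84 and SPANXB1, a sperm protein, by -4.88 ± 0.46 beside -2.12. MAGEB2, elsewhere on the chromosome, rose from 2.44 to 8.81 CPM (1.85 ± 0.18) beside 0.45. Reads of near-identical family copies such as MAGEA3 and MAGEA6, or of the SPANX genes, may have been assigned to the wrong copy.

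The BCL2 family governs the release of mitochondrial death signals. Of 23 tested members 5 rose and 6 fell (3 on leaving out parental replicate 3 or resistant replicate 3). BAX and BBC3, both also p53 targets, rose from 109 ± 10.4 to 212 ± 12.4 CPM (SD, n = 3) and from 7.55 ± 1.49 to 16.2 ± 1.71 CPM (SD, n = 3), the latter beside a neighbour median of 0.44. BAD and BNIP3, other death-promoting members, fell from 27.9 ± 2.58 to 15 ± 0.111 CPM (SD, n = 3) and from 67.3 ± 2.73 to 36.1 ± 0.883 CPM (SD, n = 3) beside neighbour medians of -0.67 and -0.52. BMF rose from 1.99 to 4.18 CPM (1.07 ± 0.18).

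Changes among cytosolic chaperones were small: 16 of 54 tested members rose (10 on leaving out parental replicate 1 or resistant replicate 3) and 10 fell (5 without resistant replicate 3), with 1 change of 2-fold. DNAJA1, a partner of HSP70, rose from 343 ± 18.7 to 487 ± 42.4 CPM (SD, n = 3), CHORDC1 and FKBP4, partners of HSP90, by 0.51 ± 0.06 and 0.53 ± 0.05, and HSPB1, a small heat shock protein, from 147 to 254 CPM (0.79 ± 0.16). The chaperonin subunits CCT3, CCT4 and CCT7 rose by 0.26 ± 0.05, 0.21 ± 0.05 and 0.21 ± 0.05. DNAJC6, a clathrin uncoating factor, changed by -0.66 ± 0.09 and the HSP90 partners STIP1 and CDC37 by -0.31 ± 0.05 and -0.29 ± 0.05, beside neighbour medians of -0.55 and -0.37.

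In cholesterol synthesis and uptake 5 of 35 tested members rose and 7 fell (4 without resistant replicate 2, 3 without resistant replicate 3), 34.3% in all. APOE, a lipid carrier, rose from 1.12 ± 0.169 to 3.38 ± 0.47 CPM (SD, n = 3) beside a neighbour median of 0.51, while NSDHL, a sterol enzyme encoded on chromosome X, fell from 27.3 ± 0.701 to 14.5 ± 1.03 CPM (SD, n = 3) beside -0.97. The remaining named members PMVK and FDPS, enzymes of the mevalonate route, changed by -0.32 ± 0.06 and 0.23 ± 0.05. In fatty acid synthesis and handling 9 of 49 rose (5 without resistant replicate 1) and 11 fell. The fatty acid carriers FABP5 and CD36 rose from 11.7 ± 1.32 to 21.9 ± 0.997 CPM (SD, n = 3) and from 0.285 ± 0.114 to 1.63 ± 0.504 CPM (SD, n = 3), the mitochondrial import enzyme CPT1A fell from 78.2 ± 7.27 to 51.7 ± 4.07 CPM (SD, n = 3), and FADS3, a desaturase relative, changed by -0.79 ± 0.12.

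Enzymes of DNA methylation and Polycomb repression had the lowest share called among lists of at least 10 tested members, 17.4% of 46 tested, below the 28.3% over all genes. PCGF5 and PCGF6, subunits of Polycomb complexes, changed by -0.98 ± 0.07 and -0.57 ± 0.09 beside neighbour medians of -0.54 and -0.67, and CBX7, which reads the Polycomb mark, changed by -0.86 ± 0.12. The 4 rises (2 on leaving out parental replicate 3 or resistant replicate 1) included CBX2 (0.47 ± 0.09).

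Among regulators of tissue-specific splicing 8 of 29 tested members rose (5 without resistant replicate 1) and 5 fell. MSI1, the neural RNA-binding protein Musashi 1, had 0.552, 0.617 and 0.687 CPM in parental and 8.66, 6.29 and 6.65 CPM in resistant libraries, a change of 3.53 ± 0.20 (adjusted p = 1.1e-05). ELAVL2, a neuronal RNA-binding protein, rose from 6.24 ± 1.32 to 19 ± 2.27 CPM (SD, n = 3) beside a neighbour median of 0.37, TIAL1 changed by -0.48 ± 0.05 beside -0.55, and MBNL3 fell as described above.

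Around EMC10, 1 of 16 tested genes of the ER membrane complex and tail-anchor insertion rose and 4 fell. MMGT1, another subunit of the complex, fell from 50 ± 3.17 to 30.5 ± 0.762 CPM (SD, n = 3) beside a neighbour median of -0.76, while GET1 rose by 0.42 ± 0.09 and GET3 changed by -0.31 ± 0.06 beside -0.37. Inflammasome and NLR genes had 6 rises (3 on leaving out parental replicate 3 or resistant replicate 3) and 1 fall (3 without parental replicate 2, 2 without parental replicate 3) among 19 tested. The fall was NLRP2, an NLR protein of oocytes and embryos, with 19.4, 15.5 and 24.8 CPM in parental and 0.664, 0.366 and 0.598 CPM in resistant libraries, a change of -5.19 ± 0.25 (adjusted p = 5.5e-06). CASP4, an inflammatory caspase, rose from 29.5 ± 2.38 to 44.7 ± 5.32 CPM (SD, n = 3), IFI16, a DNA sensor, by 0.63 ± 0.08 beside 0.32, and NLRP11 by 1.17 ± 0.13 beside 0.50. The leukocyte list had 4 tested genes, of which CSF1R and the lysozyme gene LYZ fell (from 6.5 ± 0.877 to 2.6 ± 0.402 CPM (SD, n = 3) for LYZ), and the 4 tested endothelial markers did not pass.

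The promoters of genes with large changes were read in RefSeq windows of 250 bases before the start, available here for 11114 of 13762 tested protein-coding genes and for 16 of the 24 genes with the largest changes. Many vertebrate promoters lie in CpG islands, and those of broadly expressed genes are the richest in CpG pairs. Under 10 CpG pairs were found in 38.9% of 442 windows of genes at least 2-fold higher and in 40.3% of 365 windows of genes at least 2-fold lower, against 17.5% of all tested windows. Among genes of at least 10 CPM the shares were 34.9%, 30.8% and 11.2%. The median was 15 pairs for the higher, 14 for the lower and 21 for all tested genes. Genes called without reaching 2-fold resembled the whole, at 13.8% and 13.1%. These shares are descriptions with no test, and 1 window, the first listed, was read for each gene.

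HS6ST2 and PXDN, which both fell by at least 6 log2 units, lie far apart in this range. Their windows (minus strand, chrX:132961371-132961620 and chr2:1744516-1744765) have 1 and 32 CpG pairs, which the capitals mark.
HS6ST2: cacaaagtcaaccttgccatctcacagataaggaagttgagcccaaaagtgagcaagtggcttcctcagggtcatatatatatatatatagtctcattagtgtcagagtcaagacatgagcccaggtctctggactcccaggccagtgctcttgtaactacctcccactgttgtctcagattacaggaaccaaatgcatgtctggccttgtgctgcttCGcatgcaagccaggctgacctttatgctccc
PXDN: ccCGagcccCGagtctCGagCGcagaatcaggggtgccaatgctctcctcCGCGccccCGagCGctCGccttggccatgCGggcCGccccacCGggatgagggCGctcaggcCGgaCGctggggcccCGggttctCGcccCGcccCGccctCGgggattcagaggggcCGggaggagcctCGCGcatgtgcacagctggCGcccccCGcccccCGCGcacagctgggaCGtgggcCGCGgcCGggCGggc
The letters TATAAA, the core of a TATA box, sought on both strands, were in 12.2% of the windows of 2-fold higher genes, 8.77% of those of 2-fold lower genes and 5.83% of all tested windows. The letters TGANTCA, which AP-1 factors bind, were in 7.92%, 6.58% and 4.10%. PTGS2 is shown as 1 of the rising genes with the letters TATAAA, marked in capitals in its window (minus strand, chr1:186680424-186680673).
PTGS2: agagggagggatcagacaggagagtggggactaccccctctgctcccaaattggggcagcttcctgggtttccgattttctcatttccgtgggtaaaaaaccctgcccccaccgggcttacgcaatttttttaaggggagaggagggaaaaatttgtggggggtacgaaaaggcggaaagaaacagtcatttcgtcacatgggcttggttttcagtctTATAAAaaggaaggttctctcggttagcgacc

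**Figure D4:**
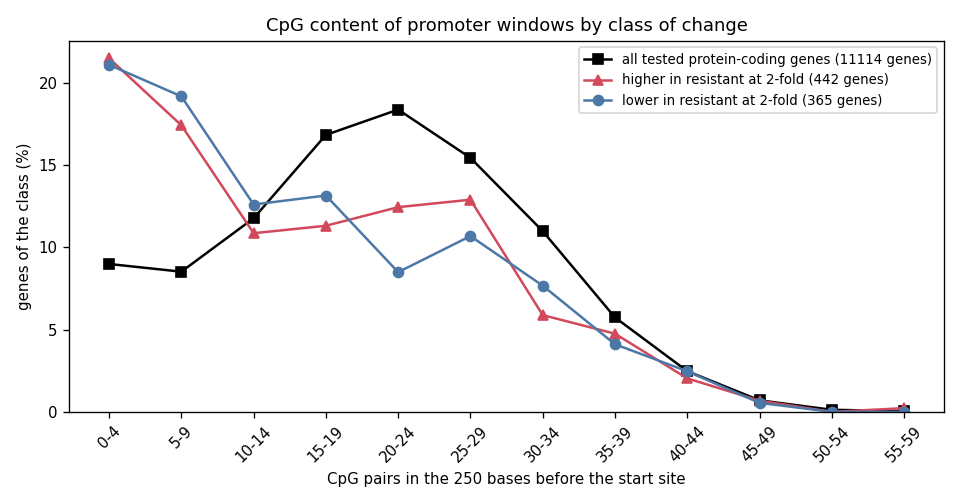
Share of genes (percent of each class) by the number of CpG pairs in the 250 bases before the start site, in bins of 5 pairs, for all tested protein-coding genes and for those at least 2-fold higher or lower. Both classes of changed genes hold more windows of under 10 CpG pairs than the whole and fewer between 15 and 34.

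The 3 highest and 3 lowest of the 24 genes of largest fold change that were also listed for CHL1 were set beside that line, a second melanoma line whose resistant derivative was selected for 3 months, kept at 4 µM and left without the drug for 72 h. The interaction test over all 12 libraries asked whether the A375 change differed from the CHL1 change, and 23.6% of 19241 genes passed it. MBNL3 lay between 13.2 and 16.1 CPM in all 6 CHL1 libraries, and the difference between lines was -7.60 log2 units (adjusted p = 1.01e-09). UCA1 and HS6ST2 differed by -8.52 and -9.85 (adjusted p = 0.00192 and 0.0154), and MMP9 and RARB by 7.30 and 3.97 (adjusted p = 0.0373 and 0.00836). For COL1A2 the difference of 5.16 did not pass (adjusted p = 0.128). In CHL1 none of MMP9, COL1A2, UCA1, HS6ST2 and RARB exceeded 0.218 CPM in any library, so for these genes the test set a change in A375 against levels with few or no reads, and those fold changes depend on the prior count.

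**Figure D5:**
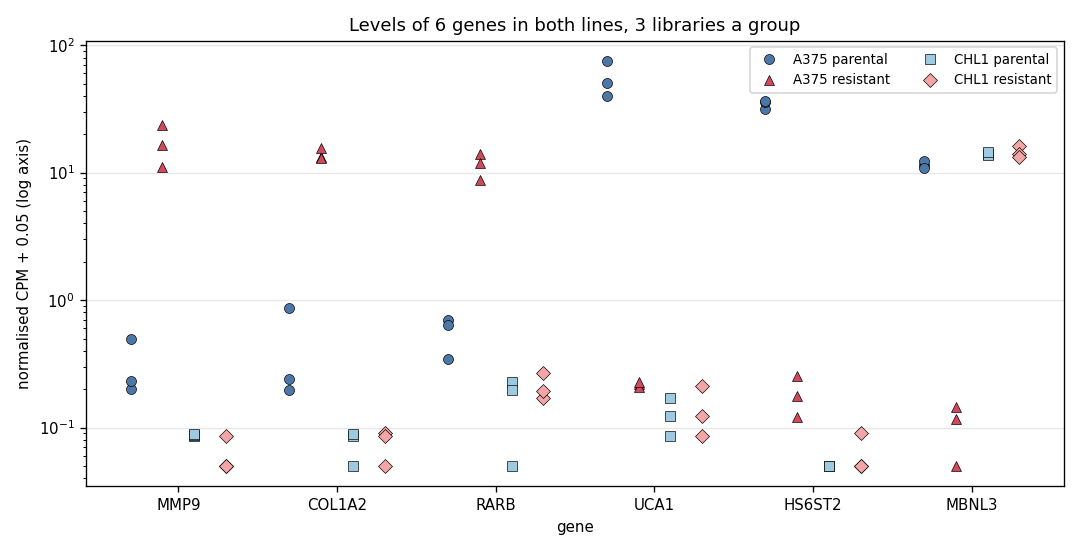
Level of 6 genes in the 3 libraries of each of 4 groups, in normalised CPM plus 0.05 on a log axis. MBNL3 falls in resistant A375 and lies at 13.2 to 16.1 CPM in both CHL1 states, while the other 5 genes stay at or below 0.218 CPM in CHL1.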

How the data were processed

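RNA from parental and palbociclib-resistant A375 cells was sequenced with an unstranded kit, so reads of a gene and of its antisense partner cannot be told apart. The deposited values are read counts per Ensembl gene, whole numbers without normalisation, and the total per library gives its depth. Tools named, per the submitters' processing notes, are HTSeq 0.5, TopHat2, limma, cutadapt 1.7 and CASAVA 1.8.2, in no stated order. The build and annotation were not given in the sources used here. All mapped columns were used, and symbols, gene types and gene order came from a table of names and GENCODE release 29.

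Counts were tested in R 4.3.3 with edgeR 4.0.16 (TMM factors, filterByExpr with a minimum count of 10, the two-sided quasi-likelihood F-test, Benjamini-Hochberg adjustment over all tested genes). The test was tried on simulated data first. For the 2 lines the interaction term came from 1 fit to 12 libraries. Alternatives were DESeq2 1.42.0 without the low-count filter and, in edgeR, RLE scaling, other count filters, each library left out in turn and the replicate number as a block. SEs were derived from the F statistic. Counting intervals are exact at 95% and, like the floor of 3 counts per library, cover counting error only. Promoter sequences came from RefSeq (GRCh38.p14) and were matched by symbol. Python 3.11.15 with pandas 2.3.3 and matplotlib 3.10.9 was used for promoters and figures.

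The comparison, the 38 gene lists and the rule for named genes were chosen with earlier results of these data known. The rule took the 12 highest and 12 lowest fold changes among called genes of at least 10 CPM without overlap between groups. It added the 8 largest rises and 8 largest falls in CPM among genes called at 2-fold. Both rankings covered only genes with an established symbol. They left out unnamed identifiers, clone-style and LINC names, antisense RNAs, Y-linked genes, XIST and genes without a chromosome. From each list the rule added up to 4 called members with the smallest adjusted p. It also added the list's called member with the largest change if that member reached 10 CPM. Genes outside this rule were picked once their values were known. Some genes that the rule named are not reported here.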

Additional observations from a re-analysis of the deposited data

Results flagged for a closer look

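Of the 6 genes compared between the lines, 5 had a resistant-against-parental change in A375 that differed from the change in CHL1 by the interaction test in edgeR. The 6 were picked for the largest changes in the same A375 libraries, so large differences were likely beforehand. Over all 19241 genes 23.6% passed this test. The difference was 7.30 log2 units for MMP9, 3.97 for RARB, -8.52 for UCA1, -9.85 for HS6ST2 and -7.60 for MBNL3. MBNL3 was the only 1 of these 5 with more than a few reads in CHL1, between 361 and 397 reads in each library, and so the only 1 whose CHL1 change was measured with precision. HS6ST2 had 0 reads in 5 of the 6 CHL1 libraries and 1 read in the other. Groups of 3 libraries were too small to look for single libraries that stand apart.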

How the results depend on the processing

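The count of called genes was 4555 with DESeq2, which was run without the low-count filter and so changed both tool and filter. In edgeR it was 5085 with RLE scaling, 5287 without a filter and 4767 with a filter at 1 CPM in 3 libraries. It ran from 3782 to 4738 when 1 library was left out, lowest without resistant replicate 3. Of 1813 values of the 165 named genes under these alternatives 1811 kept their direction and side of the threshold, and the 2 exceptions were the weaker calls of MC1R. The named genes were picked for large changes or small adjusted p in the same libraries, so this stability was likely beforehand. Of 469 called list members 329 kept the call in all 6 fits without a library, and 404 of 418 counts per list stayed within 1.5 times. The exceptions by a planned setting were the pigment cell list with 7 called members (11 without a filter, 12 with the block), Polycomb with 8 (14 with the block) and the leukocyte list with 2 (1 with the 1 CPM filter). Without resistant replicate 3 the counts were lowest for ERK output (7 to 11 over the fits), homeobox genes (13 to 22), the BCL2 family (7 to 10), chaperones (15 to 25), cholesterol (7 to 13) and NLR genes (4 to 7), and without resistant replicate 1 for the pigment list (3 to 9). The cause was not tested. Same-numbered libraries correlated at 0.263, 0.274 and -0.00679 in their deviations from the group means. The parental and resistant libraries of unlike number correlated at -0.311 to 0.0712, so replicates 1 and 2 were each closest to their own number and replicate 3 was not. The second principal component held 10.1% of the variance. Its parental and resistant scores were 21.1 and 15.5 for replicate 1, -19.2 and -20.2 for replicate 2, and -0.79 and 3.63 for replicate 3. No source used here states whether the numbers pair the libraries, and this was not tested. With the replicate number as a block 6307 genes were called (3016 higher, 3291 lower), with 717 and 639 at 2-fold. Depth limits genes near the floor of 3 counts, whose folds rest on few reads.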
